A study of Mus musculus with 54 samples.

Results

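Prostate tumours of intact mice of the genotype labelled DKO_EE were compared at endstage and at 12 weeks of age by bulk RNA sequencing. The members were chosen by their labels alone: genotype DKO_EE, treatment Intact, and collection at endstage or at 12 weeks. They were 16 of the 54 libraries and 12 of the 48 animals of the series. The 12-week group held 4 animals with 1 library each. The endstage group held 8 animals aged 28 to 42 weeks with 12 libraries, because 4 animals gave 2 pieces of tumour that were labelled DP, AP, LP or DP-LP. The single libraries of endstage animals 1, 2 and 4 were labelled PT and that of animal 3 AP, while the 12-week libraries had no piece label. The labels therefore do not separate the tissue taken from the stage. Pieces of 1 animal were averaged on the log2 scale, so that the animal was the replicate.

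The series holds prostate tumours of mice labelled DKO, DKO_EE, DKO_EP and TKO. According to its design text, the models DKO_EE and DKO_EP are DKO mice that also carry Ezh2 deletions. All animals compared here in DKO_EE share whatever DKO stands for, at both stages, and all are labelled intact. The labels spell out neither the DKO alleles nor the difference between EE and EP, and the promoter of any Cre and the strain are not given in the sources used here. The 4 animals at 12 weeks and endstage animals 4, 7 and 8 have identifiers that begin with DKOE, whereas those of endstage animals 1, 2, 3, 5 and 6 begin with ET, and the labels do not say what these letters mark. The endstage animals 1 to 8 were 35, 33, 30, 28, 34, 42, 35 and 31 weeks old.

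Some prostate cancers lose the luminal identity of the gland, with its hormone-dependent program, and take on a neuroendocrine state. Neuroendocrine cells make hormone granules and use transcription factors that also act in developing neurons, among them INSM1 and FOXA2. EZH2 is the catalytic subunit of Polycomb repressive complex 2 (PRC2), which methylates histone H3 on lysine 27 and keeps developmental genes silent, and EZH1 is its less active relative.

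Values are log2 of a normalized count plus 1, as deposited, so a difference of 1 is a 2-fold change. A gene was called at a Benjamini-Hochberg adjusted p under 0.05 in a limma fit of all 48 animals, and log2 differences are given ± SE, with 4 animals against 8. Libraries held 7600474 to 9741808 reads at 12 weeks and 3687048 to 9350512 at endstage. Reads of Lars2, which encodes mitochondrial leucyl-tRNA synthetase, made up 0.0085% to 35.3136% of an endstage library and exceeded 10% in 5 of 12, against at most 0.0032% at 12 weeks. Endstage animal 4, with 1 library of 35.3136% Lars2 and the fewest reads, was also highest in the summed markers of fibroblasts, smooth muscle, endothelium, macrophages and red cells. Counts below were recomputed without each animal and without the libraries above 10% Lars2.

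Ezh2 (chromosome 6, 47530139 to 47595341) was lower in DKO_EE than in DKO at either stage. At 12 weeks it measured 7.59, 7.69, 7.33 and 7.79 in DKO_EE, below all 4 DKO animals at 8.69, 8.39, 8.32 and 8.19. At endstage it lay between 7.41 and 8.76 in DKO_EE with a median of 8.31, below the 3 DKO animals at 9.88, 9.48 and 9.47. These values sum reads over the whole gene, so a deletion of part of it would be understated, and reads from cells outside the deletion count too. From 12 weeks to endstage Ezh2 rose by 0.67 ± 0.26 (adjusted p = 0.0288), with overlapping groups. That call ended without endstage animal 2, 5 or 7 (adjusted p 0.0547, 0.0551 and 0.0556), without 12-week animal 1 or 3 (0.0578 and 0.0935), with DKOE animals only (0.42, adjusted p = 0.279) and with the letters as a covariate (0.49, adjusted p = 0.182).

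The tumours at endstage expressed more neuroendocrine, synaptic and cell division genes, and fewer basal, luminal, stromal and immune genes, than those at 12 weeks. Of 16772 genes, 3958 were higher at endstage, which is 23.6% of those tested, and 4525 were lower, which is 27%. Of these, 1176 were higher and 1703 were lower by more than 4 times. All 8 endstage animals lay above all 4 12-week animals for 13.7% of genes and below them for 14.5%. The median change over all genes was -0.07. In a bulk sample, fewer cells of a type and less RNA per cell cannot be told apart.

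**Figure D1:**
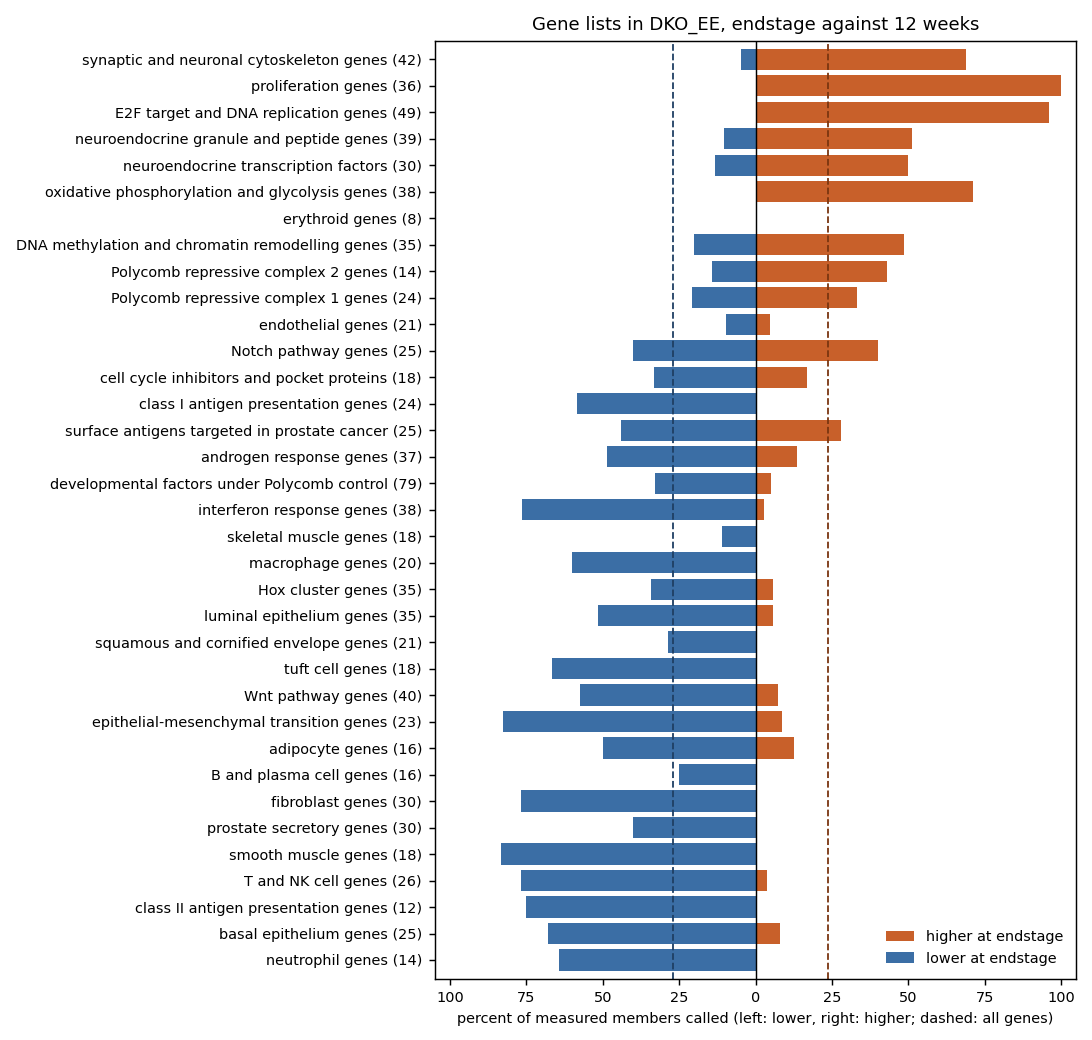
Share of the measured members of each of 35 gene lists (number in brackets) that were called higher (orange, right) or lower (blue, left) at endstage than at 12 weeks in DKO_EE, sorted by the median change of the list. Dashed lines mark the shares over all genes, 23.6% higher and 27% lower; all 36 proliferation genes were higher, and neutrophil and basal epithelium genes had the lowest medians.

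Factors that direct the neuroendocrine state rose. Of 30 measured transcription factors of this list, 15 were higher (50%, beside 23.6% of all genes) and 4 lower (13.3%, beside 27%). The median change was 1.2. Foxa2 (chromosome 2, 148042877 to 148046969), a forkhead factor of endodermal and neuroendocrine cells, measured 3.23, 4.08, 2.87 and 6.66 at 12 weeks and 9.86 to 10.68 at endstage, with a median of 10.41. Every endstage animal exceeded every 12-week animal, and 12-week animal 4 stood nearest to them. The difference was 6.12 ± 0.85 (adjusted p = 4.26e-07). Insm1, a zinc finger factor of endocrine differentiation, rose by 4.72 ± 1.11 (adjusted p = 0.000567) to a median of 9.61.

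Prox1, a homeobox factor of neural and endocrine development, rose by 4.26, St18, a zinc finger factor of the Myt1 family, by 4.5, and Sox1, a neural progenitor factor, by 4.53. Hes6, an inhibitor of HES1, rose by 3.52 and Neurod4, a neurogenic factor, by 4.44. In all of these genes the groups did not overlap. Neurod1, a factor of a further neuroendocrine subtype, was uneven. At 12 weeks it measured 1.03, 1.05, 0 and 3.23, and at endstage between 0 and 8.25 with a median of 5.5. It rose by 3.91 ± 1.12 (adjusted p = 0.00384) although the groups overlapped, and the call ended among libraries under 10% Lars2 (2.91, adjusted p = 0.0587). Mycl, a MYC family member, rose by 1.39 ± 0.52 (adjusted p = 0.0235), and Mycn had a difference of 0.73 ± 0.68 (adjusted p = 0.383). Mycl lost its call without endstage animal 1 (adjusted p = 0.0506), without 12-week animal 1 (0.131) or 3 (0.0526), with DKOE animals only (0.14) and with the letters as a covariate (0.122).

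The 4 members of this list that fell were Isl1, Ebf3, Lhx2 and Pou2f3. The limma call of Lhx2, a gene near 0 at endstage, ended with an offset of 10 (-0.28, adjusted p = 0.495) and with quantile normalization (-1.09, adjusted p = 0.115). It also ended without 12-week animal 1 or 3 (adjusted p 0.0587 and 0.0652). Isl1, a LIM homeobox factor of neurons and endocrine cells, fell by 3.82 and Ebf3, a helix-loop-helix factor also present in stroma, by 3.08. Pou2f3, the factor of tuft cells, measured 2.05, 6.28, 2.87 and 5.34 at 12 weeks and 0 to 4.49 at endstage. It fell by 2.58 ± 0.85 (adjusted p = 0.0112), a call that ended without 12-week animal 2 (adjusted p = 0.0936) or 4 (0.0551). Onecut2, a factor studied in neuroendocrine prostate cancer, was at 10.04 and 12.28 in 12-week animals 2 and 4, at 2.05 and 0 in animals 1 and 3, and between 1.81 and 7.67 at endstage; it was not called (adjusted p = 0.213). Nkx2-2, Onecut1 and Pax6 were listed at 0 in all 12 animals.

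Genes of the hormone granules rose. Of 39 measured granule and peptide genes, 20 were higher (51.3%, beside 23.6% of all genes) and 4 lower (10.3%, beside 27%). Their median change was 1.4. Chga (chromosome 12, 102554969 to 102565028), chromogranin A, measured 4.52, 5.92, 5.47 and 8.06 at 12 weeks and 11.1 to 11.95 at endstage, with a median of 11.54. The endstage animals lay within 1 log2 unit of each other and above all 12-week animals. The difference was 5.55 ± 0.94 (adjusted p = 9.29e-06).

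Scg2 (chromosome 1, 79434669 to 79440120), secretogranin II, measured 3.06, 3.4, 7.71 and 5.96 at 12 weeks and 10.31 to 12.45 at endstage. It rose by 6.28 ± 1.23 (adjusted p = 7.04e-05), without overlap. Its promoter is shown because it holds the cyclic AMP response element letters that occur in granule genes. The stretch is the 250 bases upstream of the RefSeq start, GRCm38.p6, chr1:79440027-79440276, minus strand, with the match to TGACGTCA in capitals.
Scg2: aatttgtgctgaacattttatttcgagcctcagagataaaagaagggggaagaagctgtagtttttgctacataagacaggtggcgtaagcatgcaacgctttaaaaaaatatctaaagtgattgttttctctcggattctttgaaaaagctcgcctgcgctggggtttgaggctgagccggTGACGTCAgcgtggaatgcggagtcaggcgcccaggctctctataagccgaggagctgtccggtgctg
TGACGTCA, searched on both strands of the 250 bases, occurred in 6 of 30 granule genes with a RefSeq promoter (20%) and in 1.77% of 27025 genes; Scg2 and the genes of the other promoters printed were chosen after their values were seen. A match describes the letters and not a bound site.

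Other granule genes rose too. Scg5, the chaperone 7B2, rose by 5.62 ± 1.04 (adjusted p = 3.12e-05) and Ddc, the aromatic amino acid decarboxylase, by 5.31 ± 0.97 (adjusted p = 2.85e-05). Pcsk1, the prohormone convertase, rose by 4.7 and Ptprn2, a granule membrane protein, by 4.28. Calca, which encodes calcitonin and its related peptide, measured 3.97, 3.78, 3.67 and 5.51 at 12 weeks. At endstage it ran from 5.93 to 13.22, the widest range of the granule genes named here, and it rose by 5.2 ± 1.58 (adjusted p = 0.0062); the call ended with Lars2 percent as a covariate (adjusted p = 0.0619) and in limma-voom (0.128). The 4 members that fell were Calcb, Pam, Tac1 and Ngfr, by 2.16, 0.63, 2.59 and 1.92. Of these calls that of Pam ended under 13 alternatives, that of Ngfr under 11 and that of Calcb under 9, each without any 1 of several animals (highest adjusted p without 1 animal 0.173, 0.248 and 0.0978, each without 12-week animal 3). Sst, somatostatin, was listed at 0 in all endstage animals, and Grp, gastrin-releasing peptide, was not called.

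Of 42 synaptic and neuronal cytoskeleton genes, 29 were higher (69%, beside 23.6% of all genes) and 2 lower (4.76%, beside 27%). The median change of 2.79 was the highest median of the 35 lists. Syp, the synaptic vesicle protein synaptophysin, measured 4.31, 4.54, 7.84 and 6.93 at 12 weeks and 9.24 to 9.75 at endstage. It rose by 3.54 ± 0.93 (adjusted p = 0.00182), and the endstage animals were closely spaced while the 12-week animals were not. Unc13a, a vesicle priming factor, rose by 5.02, Ina, a neuronal intermediate filament, by 4.42, Nova1, a neuronal splicing factor, by 3.27, and Stx1a, a vesicle fusion protein, by 2.57. The 2 that fell were Dpysl3, by 2.14, and Stmn2, a growth cone protein, by 3.27 (not called with DKOE animals only, adjusted p = 0.0616). Tubb3 and Gap43 were not called.

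Neuronal genes also separated the 12-week animals. Animal 3 had the highest summed level of the synaptic list and of the granule list, 14883 and 10177 normalized counts, against 4817 to 10574 and 4033 to 8127 in the other 3. Genes of sympathetic neurons were highest in the same animal: Dbh, dopamine beta-hydroxylase, measured 0, 0, 6.72 and 4.71. Prph, peripherin, measured 2.64, 3.89, 9.36 and 4.8, and Tubb3 3.87, 3.54, 9.76 and 5.68. Their part in the results was not tested. Animal 4, the highest of the 12-week group in Foxa2, Insm1 and Chga, had a summed level of neuroendocrine factors of 9671, against 1326 to 3278 in the other 3 and 14422 to 26120 at endstage.

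**Figure D2:**
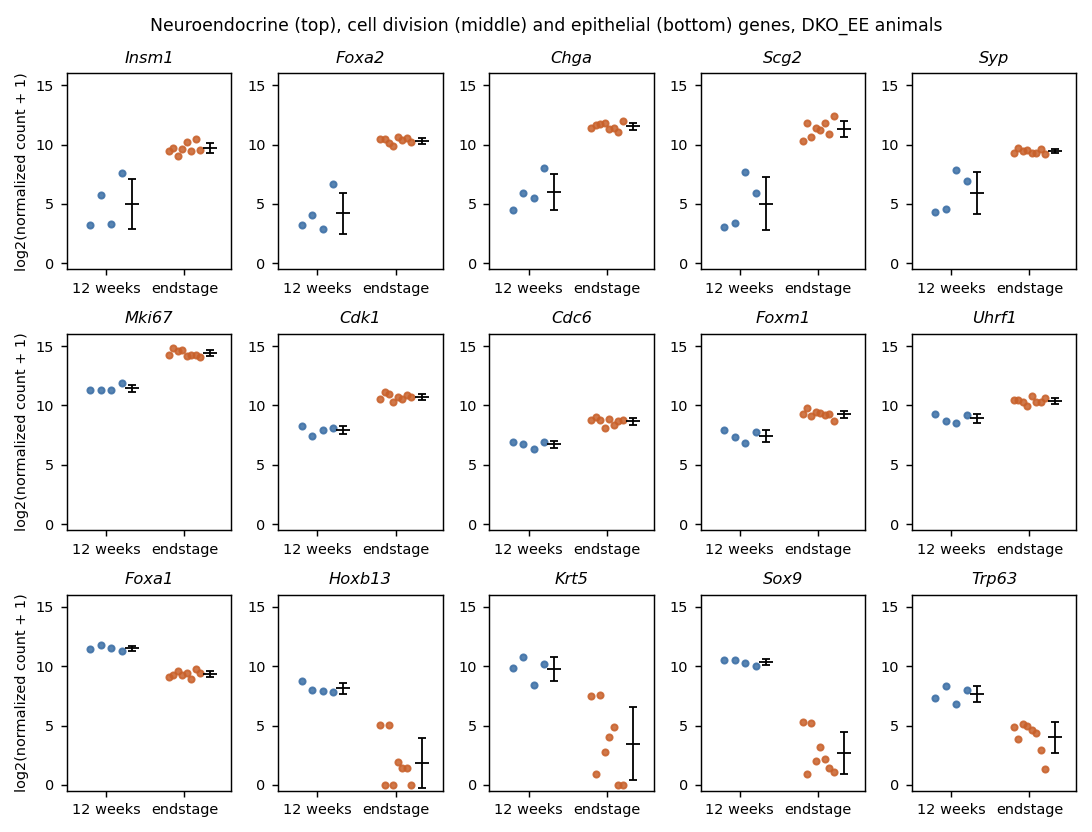
Log2(normalized count + 1) of 15 genes in each DKO_EE animal at 12 weeks (blue, 4 animals) and endstage (orange, 8 animals), with the mean and SD beside the points. In each gene shown the groups do not overlap; Chga is at 4.52 to 8.06 at 12 weeks and 11.1 to 11.95 at endstage, while Krt5 at endstage runs from 0 to 7.57.

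REST silences neuronal genes outside the nervous system. Rest measured 9.27, 9.59, 9.17 and 9.32 at 12 weeks and 5.31 to 7.73 at endstage, and fell by 2.99 ± 0.55 (adjusted p = 2.93e-05) without overlap. Notch signalling holds back neuroendocrine differentiation. Its 25 measured genes split, with 10 higher (40%, beside 23.6% of all genes), 10 lower (40%, beside 27%) and a median of -0.29. The ligands Dll1, Jag2 and Dll3 rose by 2.04, 2.19 and 1.99, and so did Mfng, a glycosyltransferase that modifies Notch, by 2.57. Dll3, an inhibitory ligand and therapeutic target, remained low, at 1.03, 2.07, 1.49 and 2.95 at 12 weeks and 3.34 to 4.56 at endstage. The receptor Notch2 fell by 2.28 ± 0.41 (adjusted p = 2.51e-05) and the coactivator Maml2 by 2.08 ± 0.36 (adjusted p = 1.27e-05).

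Genes of replication and mitosis were higher at endstage. All 36 proliferation genes rose (beside 23.6% of all genes), with a median of 2.33. In all 36 the endstage animals lay above the 12-week animals (beside 13.7% of all genes). Of 49 E2F target and replication genes, 47 rose (95.9%) and none fell (beside 27% of all genes), with a median of 1.48. The other 2 were not called. Mki67 (chromosome 7, 135689784 to 135716361), the Ki-67 proliferation marker, measured 11.29, 11.33, 11.27 and 11.9 at 12 weeks and 14.09 to 14.88 at endstage. It rose by 2.96 ± 0.34 (adjusted p = 1.65e-08). Cdk1 (chromosome 10, 69335146 to 69352938), the mitotic kinase, went from 8.29, 7.46, 7.91 and 8.09 to between 10.31 and 11.14 and rose by 2.78 ± 0.3 (adjusted p = 6.61e-09). Cdc20, an activator of the anaphase-promoting complex, rose by 2.34, Foxm1, a factor for mitotic genes, by 1.8, Ccne1, cyclin E1, by 2.26, and Cdc6, a licensing factor of replication origins, by 1.96.

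Promoters of Cdk1, Cdc20 and Cdc6 show the letters known from such genes: the cell cycle homology region TTTGAA or TTCGAA (CHR), the CCAAT box, and the E2F letters TTTGGCGC or TTTCCCGC. The 250 bases upstream of each RefSeq start are given on GRCm38.p6: Cdk1 at chr10:69352913-69353162, minus strand, Cdc20 at chr4:118437344-118437593, minus strand, and Cdc6 at chr11:98907901-98908150, plus strand. Capitals mark CHR and CCAAT letters in Cdk1 and Cdc20, and E2F letters in Cdc6, on either strand.
Cdk1: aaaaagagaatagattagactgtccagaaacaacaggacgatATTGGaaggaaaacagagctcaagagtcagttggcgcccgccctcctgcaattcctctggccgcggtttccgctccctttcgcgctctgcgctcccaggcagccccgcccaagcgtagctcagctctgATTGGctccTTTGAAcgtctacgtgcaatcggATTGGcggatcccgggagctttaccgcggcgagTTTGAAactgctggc
Cdc20: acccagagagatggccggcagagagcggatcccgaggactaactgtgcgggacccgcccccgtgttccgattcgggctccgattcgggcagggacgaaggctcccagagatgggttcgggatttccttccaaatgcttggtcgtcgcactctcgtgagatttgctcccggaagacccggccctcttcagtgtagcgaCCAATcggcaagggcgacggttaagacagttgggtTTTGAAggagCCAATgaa
Cdc6: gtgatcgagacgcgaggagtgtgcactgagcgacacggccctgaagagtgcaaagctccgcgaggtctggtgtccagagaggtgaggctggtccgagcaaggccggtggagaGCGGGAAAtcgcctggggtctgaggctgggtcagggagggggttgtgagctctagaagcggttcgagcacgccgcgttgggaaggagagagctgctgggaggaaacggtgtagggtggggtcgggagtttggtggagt
CHR letters lay in 12 of 30 proliferation genes with a promoter (40%) and 10 of 40 E2F list genes (25%), against 19.6% of all 27025 genes. CCAAT lay in 22 of 30 (73.3%) and 26 of 40 (65%), against 37.5%. The E2F letters lay in 0 of 30 and 9 of 40 (22.5%), against 1.51%; in Cdk1 and Cdc20 these letters are not in this window.

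Regulators of the G1 phase were called at shares near those of all genes. Of 18 inhibitors, pocket proteins and D cyclins, 3 rose (16.7%, beside 23.6% of all genes) and 6 fell (33.3%, beside 27%), with a median of -0.44. Ccnd1, cyclin D1, measured 10.68, 9.73, 10.14 and 10.48 at 12 weeks and 5.86 to 8.25 at endstage, and fell by 3.47 ± 0.58 (adjusted p = 7.1e-06) without overlap. Ccnd2 and Ccnd3 fell by 2.49 and 1.71. The CDK inhibitors Cdkn2d, Cdkn2c and Cdkn1b rose, by 2.76, 1.38 and 0.79. Trp53, the p53 gene, fell by 1.09 ± 0.22 (adjusted p = 8.6e-05), without overlap. Rb1, the retinoblastoma gene, had a difference of 0.3 ± 0.23 and Cdkn2a of -0.45 ± 0.95, neither called (adjusted p 0.281 and 0.72). Rb1 was called with DKOE animals only (0.84, adjusted p = 0.0023) and with the letters as a covariate (0.69, adjusted p = 0.0206), and was at -0.06 with Lars2 percent as a covariate. Their values sum all reads of the gene and do not show whether an allele is intact.

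Luminal and androgen response genes fell, while Krt8 and Krt18, keratins of simple epithelium, were not called. Of 35 luminal genes 18 were lower (51.4%, beside 27% of all genes) and 2 higher (5.71%, beside 23.6%), with a median of -1.5. Among 37 androgen response genes 18 were lower (48.6%) and 5 higher (13.5%), with a median of -1.1. Hoxb13, a prostate homeobox factor, went from 8.78, 8, 7.89 and 7.85 to between 0 and 5.08, a difference of -6.27 ± 1.02 (adjusted p = 5.29e-06). Slc45a3, prostein, fell by 5.26, Pmepa1, an androgen-induced gene, by 3.59, Spdef, a luminal ETS factor, by 4.78, Prom1, a progenitor surface protein, by 3.06, and Foxa1, the pioneer factor of luminal cells, by 2.17.

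Krt8, Krt18 and Epcam, markers of epithelium, had differences of 0.49 ± 0.32, -0.1 ± 0.27 and -0.18 ± 0.33, none called (adjusted p 0.205, 0.784 and 0.673); Krt8 was called with array weights (0.54, adjusted p = 0.0492). Krt7, a simple epithelial keratin, rose by 2.17 and Ovol1, an epithelial repressor, by 2.3; these were the 2 luminal genes that rose. The 5 androgen response genes that rose were Klk1, Homer2, Nefh, Cenpn and Herc3, by 4.49, 2.53, 3.8, 1.76 and 1.75. Of these, Nefh is a neurofilament, Homer2 a postsynaptic scaffold and Cenpn a centromere protein.

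Genes of the secreted prostate fluid were lower or not called. Of 30 measured, 12 fell (40%, beside 27% of all genes) and none rose (beside 23.6%), with a median of -2.03. Their summed level went from 63377 to 200001 at 12 weeks to 2528 to 11338 at endstage. Clu, clusterin, fell by 4.64 and Pigr, the polymeric immunoglobulin receptor, by 4.87. Pbsn, probasin, was listed at 0 in all endstage animals and in 2 of 4 at 12 weeks. Seminal vesicle secretion genes stood out in 12-week animal 4: Svs2 measured 1.03, 9.01, 10.19 and 16.83, and Pate4 0, 5.3, 6.1 and 13.41. The part of tissue next to the prostate in this list was not tested.

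Basal cells form the outer layer of the gland. Of 25 basal genes 17 fell (68%, beside 27% of all genes) and 2 rose (8%, beside 23.6%), with a median of -2.87. Krt5 (chromosome 15, 101707070 to 101712898), the basal keratin, measured 9.82, 10.76, 8.4 and 10.2 at 12 weeks and 0 to 7.57 at endstage, with a median of 3.42. It fell by 6.34 ± 1.89 (adjusted p = 0.00536), and endstage animals 1 and 3, at 7.46 and 7.57, kept the most. Trp63, the p63 factor of basal cells, fell by 3.63 ± 1.28 (adjusted p = 0.0171; 0.051 without 12-week animal 2), Krt17 by 6, Itga2 and Itgb4, subunits of matrix receptors, by 4.65 and 4.34, and Egfr, the epidermal growth factor receptor, by 2.32. Jag2 and Igfbp2, an insulin-like growth factor binding protein, were the 2 that rose, by 2.19 and 3.17. Of 21 squamous genes 6 fell (28.6%, beside 27% of all genes) and none rose (beside 23.6%), with a median of -1.76. Their summed level was 5810 to 14262 at 12 weeks and 2990 to 5724 at endstage, without overlap. Of 18 tuft cell genes 12 fell (66.7%) and none rose.

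Sox9 (chromosome 11, 112782224 to 112787760), an epithelial progenitor factor, showed the largest fall among the genes named by size. It measured 10.54, 10.56, 10.31 and 10.02 at 12 weeks and 0.88 to 5.3 at endstage, a difference of -7.7 ± 0.82 (adjusted p = 5.57e-09). Surface proteins that are targets of prostate cancer therapies split. Of 25, 7 were higher (28%, beside 23.6% of all genes) and 11 lower (44%, beside 27%). Cd276, which encodes B7-H3, fell by 0.89 and Folh1, which encodes PSMA, by 2.42. Sez6, a neuronal surface protein, rose by 5.58, Kit, a receptor tyrosine kinase, by 2.4, and L1cam, a neural adhesion protein, by 2.38.

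The Polycomb genes changed unevenly. Of 14 PRC2 genes 6 rose (42.9%, beside 23.6% of all genes) and 2 fell (14.3%, beside 27%), with a median of 0.31. Phf19 (chromosome 2, 34893757 to 34914026), a Polycomb-like accessory subunit, measured 5.71, 4.94, 4.71 and 6.19 at 12 weeks and 8.08 to 10.16 at endstage. It rose by 3.54 ± 0.5 (adjusted p = 4.85e-07), without overlap. Suz12, a core subunit, rose by 0.64 ± 0.14 (adjusted p = 0.000296) and Jarid2, an accessory subunit, by 0.7. Eed, the core subunit that reads the mark, had a difference of 0.06 ± 0.11 and Ezh1 of -0.07 ± 0.14 (adjusted p 0.656 and 0.724). Kdm6b, a demethylase of the mark, fell by 1.44 ± 0.25 (adjusted p = 1.43e-05).

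Of 24 genes of Polycomb repressive complex 1, 8 rose (33.3%, beside 23.6% of all genes) and 5 fell (20.8%, beside 27%), shares not far from the background. Scml2 rose by 3.23, Cbx2, which reads the PRC2 mark, by 1.64, and Phc1 by 1.25, while Phc3 fell by 1.75. Among 35 DNA methylation and chromatin genes 17 rose (48.6%) and 7 fell (20%). Dnmt1, the maintenance methyltransferase, rose by 1.73, its partner Uhrf1 by 1.47 and Dnmt3b, a de novo methyltransferase, by 1.47. Arid1b, a subunit of the SWI/SNF remodeller, fell by 1.07, and Chd7, a chromodomain remodeller, rose by 1.7.

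Developmental factors that Polycomb is known to hold silent were mostly not called or lower. Of 79 measured, 4 rose (5.06%, beside 23.6% of all genes) and 26 fell (32.9%, beside 27%), with a median of -1.13. Those that rose included Sox1, Sox2 and Meis2, by 4.53, 1.45 and 1.2. Tfap2c, an epithelial AP-2 factor, fell by 5.35 and Gata3, a luminal factor, by 3.2. Of 35 Hox genes 12 fell (34.3%, beside 27% of all genes) and 2 rose (5.71%, beside 23.6%). Hoxd13 fell by 5.64, Hoxa13 by 4.21 and Hoxa10 by 3.7, and Hoxd8 and Hoxd1 rose by 2.6 and 1.69. Meis2 lost its call under 7 alternatives, and Sox2 and Hoxd1 under 1 each.

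Signalling and migration genes were mostly lower. Of 40 Wnt pathway genes 23 fell (57.5%, beside 27% of all genes) and 3 rose (7.5%, beside 23.6%), with a median of -1.78. The receptors Fzd2 and Fzd8 fell by 4.46 and 3.48, and Lgr4, which amplifies Wnt signals, by 2.59. The ligand Wnt3 measured 0, 1.05, 0 and 2.12 at 12 weeks and 4.23 to 7.36 at endstage and rose by 4.79 ± 0.65 (adjusted p = 3.17e-07). Nkd1 and Znrf3, feedback inhibitors that Wnt signals induce, rose by 2.04 and 1.02, and Axin2, a feedback inhibitor of the same kind, was not called (adjusted p = 0.624).

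Of 23 genes of the epithelial-mesenchymal transition 19 fell (82.6%, beside 27% of all genes) and 2 rose (8.7%, beside 23.6%). The median was -1.79. Snai2 and Zeb1, repressors of epithelial genes, fell by 3.18 and 1.62, Itgb6, an integrin subunit, by 2.97, and Tgfb1 by 2.27. Cdh2, N-cadherin, which neural cells also express, rose by 3.85 ± 0.54 (adjusted p = 4.26e-07), and Tgfb3 by 1.24 (adjusted p = 0.07 without 12-week animal 3). Vim, vimentin, fell by 1.39 ± 0.55 (adjusted p = 0.033), a call lost under 8 alternatives, among them without endstage animal 2, 5 or 7 (adjusted p 0.0521, 0.0505 and 0.069) and without 12-week animal 1 or 3 (0.12 and 0.084). Cells of connective tissue express most of this list too, and its summed level at endstage was highest in animal 4 and lowest in animal 7, as was that of the fibroblast list.

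Markers of stromal cells fell. Of 30 fibroblast genes 23 were lower (76.7%, beside 27% of all genes) and none higher (beside 23.6%), with a median of -1.94. Among 18 smooth muscle genes 15 were lower (83.3%) and none higher, with a median of -2.23. The summed fibroblast level was 47868 to 160756 normalized counts at 12 weeks and 5783 to 73367 at endstage, so the groups overlapped through endstage animal 4. Dcn, the matrix proteoglycan decorin, fell by 3.69, Fbln1, fibulin, by 3.53, Cnn1, calponin of smooth muscle, by 4.21, and Flna, filamin A, by 1.72. None of the 30 fibroblast or 18 smooth muscle genes was at 0 in all endstage animals.

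Endothelial genes did not follow. Of 21 measured, 2 fell (9.52%, beside 27% of all genes) and 1 rose (4.76%, beside 23.6%), with a median of -0.13. Their summed level was 2917 to 6066 at 12 weeks and 4608 to 18441 at endstage. Vwf, von Willebrand factor, measured 10.03, 9.09, 9.02 and 9.68 at 12 weeks and 10.38 to 13.71 at endstage. It rose by 3.08 ± 0.47 (adjusted p = 1.66e-06), without overlap, while Pecam1, the CD31 gene, was not called (adjusted p = 0.611). None of 8 erythroid genes was called, although their summed level was 2329 in endstage animal 4 and at most 148 in the other 7. Of 18 skeletal muscle genes 2 fell (11.1%) and none rose. Among 16 adipocyte genes 8 fell (50%) and 2 rose (12.5%).

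Markers of several immune cells were lower. Ptprc, the CD45 gene of all leukocytes, fell by 1.84 ± 0.45 (adjusted p = 0.000869). Of 20 macrophage genes 12 fell (60%), of 14 neutrophil genes 9 (64.3%), and of 26 T and NK cell genes 20 (76.9%). Of 16 B and plasma cell genes 4 fell, which is 25% beside the 27% of all genes, and 1 gene of these 4 lists rose. Csf3r, the granulocyte receptor, fell by 4.06, Spi1, a myeloid factor, by 2.16, Cd3d, a T cell receptor subunit, by 2.96, and Ncr1, an NK cell receptor, by 3.44. Neutrophil sums were 8662 to 27753 at 12 weeks and 294 to 3287 at endstage, without overlap, and Ly6g, a neutrophil surface protein, was listed at 0 in all endstage animals.

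Gzma, granzyme A, was the member that rose. It measured 3.23, 2.07, 3.56 and 5.04 at 12 weeks and 5.49 to 10.24 at endstage, above all of them, and rose by 5.05 ± 1.02 (adjusted p = 9.37e-05). Gzmb, granzyme B, fell by 3.81, and Klrd1 and Klrk1, receptors of killer cells, fell by 3.83 and 3.68. The summed level of the T and NK cell list, which includes Gzma, overlapped between the groups, at 485 to 1122 and 262 to 1353.

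**Figure D3:**
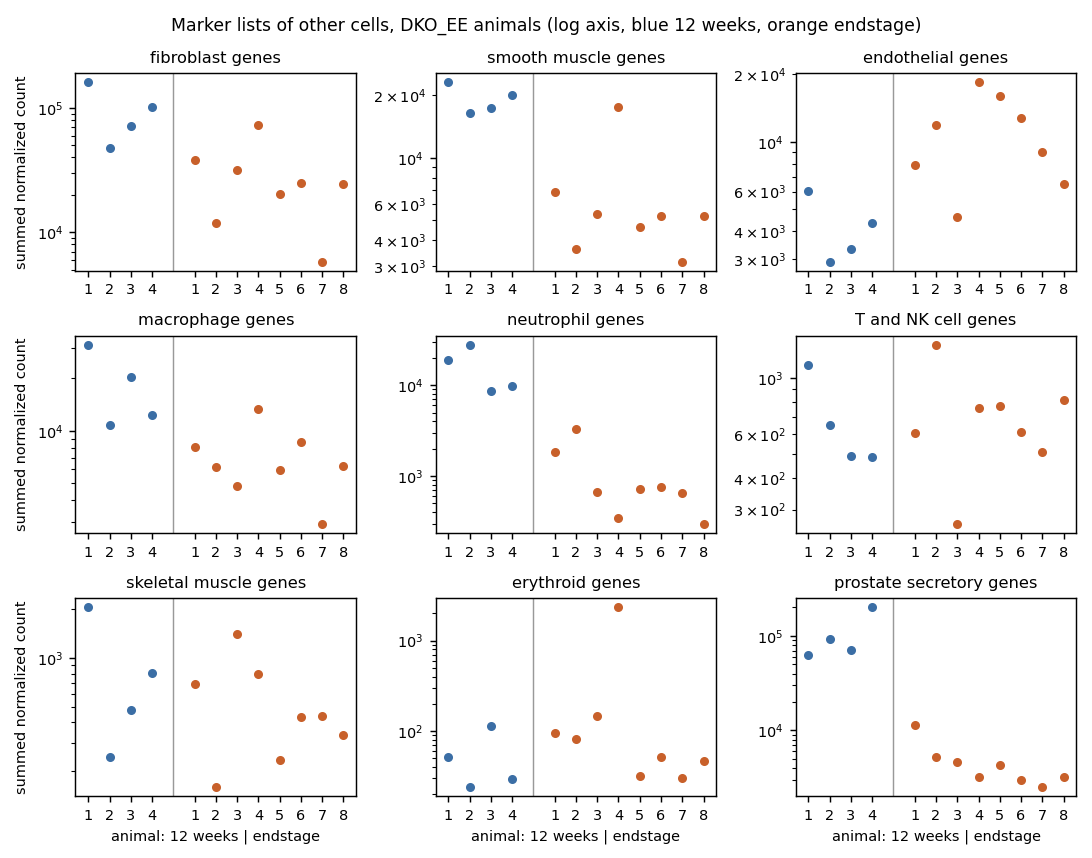
Summed normalized counts (log axis) of 9 marker lists in each DKO_EE animal, 12 weeks in blue and endstage in orange. Neutrophil and secretory sums of the groups do not overlap; endstage animal 4 is the highest endstage animal in fibroblast, smooth muscle, endothelial, macrophage and erythroid sums, and animal 7 the lowest in fibroblast and smooth muscle sums.

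Antigen presentation and interferon response genes fell as well. Of 12 class II genes 9 were lower (75%), of 24 class I genes 14 (58.3%) and of 38 interferon response genes 29 (76.3%), beside 27% of all genes. In the interferon list 1 gene was higher (2.63%, beside 23.6%). The medians were -2.35, -0.66 and -1.23. Cd74, the class II invariant chain, fell by 2.79, H2-Aa, a class II chain, by 2.75, B2m, the light chain of class I, by 1.5, and Tapbp, which loads class I, by 1.93. Ifi27 rose, by 1.5 ± 0.25 (adjusted p = 6.7e-06).

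Ifit3 (chromosome 19, 34583531 to 34588731), an interferon-induced antiviral gene, measured 11.94, 12.87, 10.74 and 10.28 at 12 weeks and 6.57 to 8.97 at endstage. It fell by 3.63 ± 0.55 (adjusted p = 1.82e-06), without overlap, though its near copy Ifit3b may share its reads. Its promoter is printed for the interferon-stimulated response element (ISRE) letters, in capitals, in the 250 bases upstream of the RefSeq start, GRCm38.p6, chr19:34583279-34583528, plus strand.
Ifit3: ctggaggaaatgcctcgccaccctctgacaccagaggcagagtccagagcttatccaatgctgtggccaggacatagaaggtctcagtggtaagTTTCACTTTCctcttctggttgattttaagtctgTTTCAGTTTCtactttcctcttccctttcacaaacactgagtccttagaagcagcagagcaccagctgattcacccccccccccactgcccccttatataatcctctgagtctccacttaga
ISRE letters, on either strand, lay in 13 of 28 interferon genes with a promoter (46.4%) and in 3.46% of all 27025 genes. Macrophages, lymphocytes and fibroblasts express many genes of these lists, their marker lists fell in the same animals, and their part in the fall was not tested.

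Energy genes rose. Of 38 genes of oxidative phosphorylation and glycolysis, 27 were higher (71.1%, beside 23.6% of all genes) and none lower (beside 27%). The median was 0.66. Pfkp and Gpi1, glycolytic enzymes, rose by 1.88 and 1.42, Eno1, enolase, by 1.48, Idh3a, of the citric acid cycle, by 1.23, and Ndufv1, of respiratory complex I, by 0.77. In each of these 5 genes all endstage animals lay above all 12-week animals.

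The largest changes by size, among genes whose animals did not overlap, included several with no place in the lists. Lars2 led, from 7.71, 8.07, 7.94 and 7.54 to between 11.54 and 21.88, a difference of 8.87 ± 1.02 (adjusted p = 2.12e-08). Its share of reads also differed between pieces of 1 animal, at 0.0085% (DP-LP) and 18.9548% (AP) in animal 8. What the Lars2 reads stem from was not tested. Cpne7, a calcium-dependent membrane binding protein, measured 1.63, 2.07, 2.2 and 4.01 at 12 weeks and 8.25 to 10.36 at endstage and rose by 7.31 ± 0.77 (adjusted p = 4.88e-09). Corin, the protease that processes natriuretic peptides, and Slc26a9, an anion channel, each rose by 7.15. Klhl41 and Myh7b, known from muscle, rose by 6.79 and 6.54, Cdh20 and Pcdh10, cadherins, by 6.66 and 6.38, Cacna2d3, a calcium channel subunit, by 6.55, Tenm1, a teneurin, by 6.44, and Crtac1, an extracellular matrix protein, by 6.38. Kank4os, which lies opposite Kank4, rose by 7.58, and since the use of strand in counting is not stated, reads of the pair cannot be told apart; Kank4 itself was not called (adjusted p = 0.578).

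The next largest losses by size after Sox9 were these. Fut9, a fucosyltransferase, fell by 7.53 ± 1.09 (adjusted p = 8.12e-07), from 9.26, 10.39, 10.3 and 10.19 to between 0 and 6.11. Cxcl5 and Cxcl15, neutrophil attractants, fell by 7.45 and 6.69, Gsdmc2, a gasdermin with near copies, by 7.28, and Krt15, a basal keratin, by 6.86. Myo5c, a myosin of secretory epithelium, fell by 6.58, B4galnt2, a glycosyltransferase, by 6.47, Mmp7, matrilysin, by 6.43, Slc39a4, a zinc transporter, by 6.4, and Mpzl2, an epithelial adhesion protein, by 6.34.

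The endstage tumours were alike in some neuroendocrine genes and unlike in others. Foxa2 ran from 9.86 to 10.76 and Chga from 10.99 to 12.4 over the 12 libraries, whereas other neural genes were high in some tumours and near 0 in others. Nefl (chromosome 14, 68083863 to 68089095), the light neurofilament, measured 12.36, 11.24, 4.63, 7.79, 12.12, 11.85, 12.27 and 6.6 in endstage animals 1 to 8. It was lowest in animals 3, 8 and 4, which were the 3 youngest, at 30, 31 and 28 weeks. Olig3, a neural progenitor factor, was also lowest in those 3 animals, as was Slitrk3, a synaptic adhesion protein. Gad1, which makes the transmitter GABA, went the other way, at 10.22, 10.87 and 10.3 in animals 3, 4 and 8 and 1.25 to 4.91 in the other 5. Bhlhe22, a neural factor, was at 0 in animal 2 and at 8.3 to 12.26 in the other 7. These genes and Otol1 were chosen after their values were seen.

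Age itself was tested across the 8 endstage animals. No gene passed, which is 0% of 16559 tested, with a lowest adjusted p of 0.953 in limma. An unadjusted p under 0.05 was found for 546 genes. That is a smaller share of those tested than the 0.05 that would arise with no effect of age. The slopes were 0.5 ± 0.17 log2 units per week for Nefl (unadjusted p = 0.0155), 0.7 ± 0.23 for Olig3 (0.0137), 0.61 ± 0.21 for Slitrk3 (0.0154) and -0.56 ± 0.22 for Gad1 (0.0335), each with an adjusted p of 0.953. These genes were chosen after their values were seen, so their unadjusted p-values are not tests of age. Leaving out endstage animal 6, the oldest, gave 1 gene.

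Pieces of 1 animal differed as well. The median absolute difference over genes between the 2 pieces was 0.22, 0.35, 0.25 and 0.3 in animals 5, 6, 7 and 8, against a median of 0.35 between endstage animals. In animal 8, the DP-LP piece had Nefl at 11.04, Olig3 at 8.7, Slitrk3 at 8.57 and Otol1, a gene of the inner ear matrix, at 10.74. Its AP piece had them at 2.15, 0, 0 and 1.44, while Gad1 was high in both, at 9.92 and 10.67. In animal 6, Gad1 was 9.82 in the DP piece and 0 in the AP piece, Neurod1 8.84 and 0, and Calca 11.37 and 6.5, while Nefl was 9.6 and 14.1. The basal keratin Krt5 was 0 and 8.08 in the DP and AP pieces of animal 5, 1.56 and 8.18 in those of animal 6, and 0 in both pieces of animals 7 and 8. For genes that differed so, the average of an animal therefore stands between unlike values. Pieces also differed in Lars2 reads, at 18.7344% (DP) and 0.5344% (AP) in animal 6 and 0.0085% (DP-LP) and 18.9548% (AP) in animal 8. In animal 5 they were 18.718% (DP) and 14.8972% (AP), and in animal 7 0.1921% (DP) and 0.009% (LP). The part of Lars2 in the differences between pieces was not tested.

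**Figure D4:**
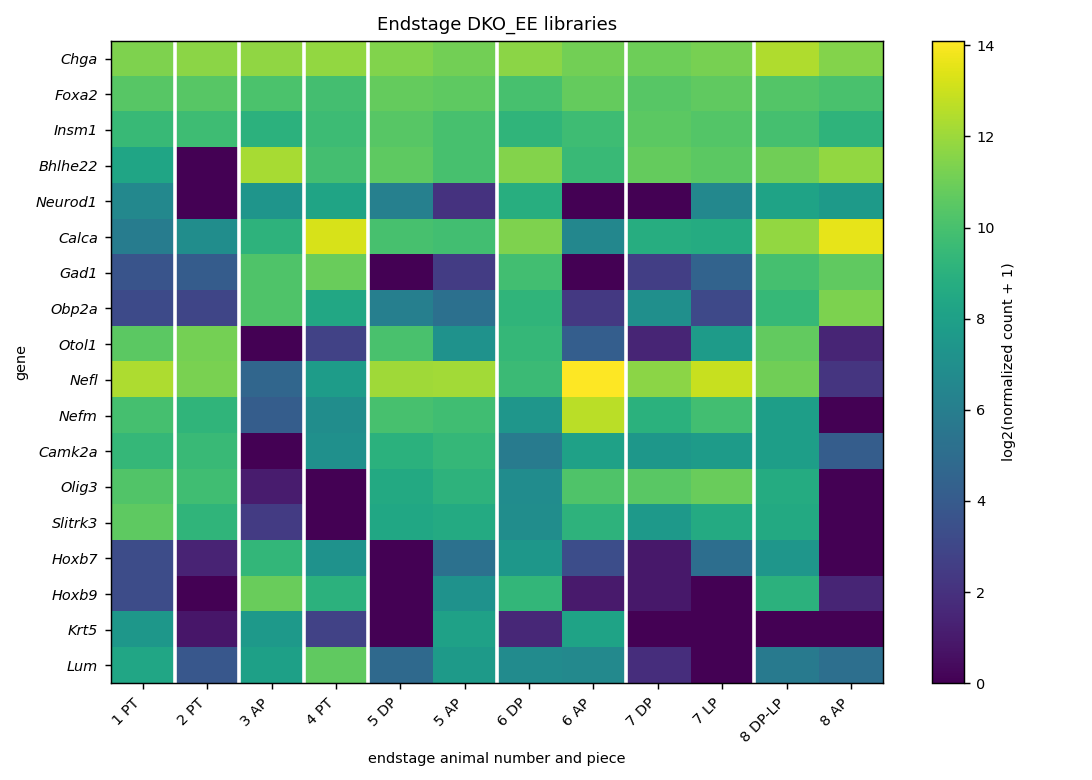
Log2(normalized count + 1) of 18 genes (rows) in the 12 endstage DKO_EE libraries (columns, animal number and piece; white lines part animals). Chga, Foxa2 and Insm1 are high throughout, while Nefl, Olig3, Slitrk3, Gad1, Neurod1 and Krt5 differ between animals and between the pieces of animal 6, and the first 3 also between those of animal 8; Nefl is 11.04 and 2.15 in the 2 pieces of animal 8.

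Few genes were called in the main fit as changing differently in DKO_EE than in the other intact genotypes. Those genotypes had 3 endstage animals each, so a gene that was not called may still have changed differently. With array weights the numbers below became 614 against DKO and 1020 against DKO_EP. Against DKO (4 animals at 12 weeks and 3 at endstage), the difference between the changes was called for 21 genes, 16 higher and 5 lower in DKO_EE, which is 0.125% of those tested. Against DKO_EP (4 and 3 animals) it was called for 9 genes, 4 higher and 5 lower, which is 0.0537%. The comparisons share the DKO_EE animals. Of the 21 and 9 genes, 11 and 2 were unnamed gene models or among the lowest 25% by mean value and are not named, apart from Lhx2.

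Fign (chromosome 2, 63971507 to 64098038), fidgetin, an ATPase that severs microtubules, measured 7.31, 4.89, 5.78 and 5.82 in DKO_EE at 12 weeks and 7.11 to 8.09 at endstage. In DKO it measured 6.31, 6.24, 5.84 and 5.38 at 12 weeks and 4.65, 3.21 and 3.18 at endstage, and in DKO_EP 5.87, 6.14, 5.7 and 5.6, then 1.97, 2.33 and 2.73. It thus rose by 1.8 in DKO_EE, while the means of DKO_EP went down by a log2 change of -3.49. The differences between the changes were 4.06 against DKO (adjusted p = 0.000627) and 5.28 against DKO_EP (adjusted p = 4.12e-06), and each stayed called without any 1 animal (highest adjusted p 0.00748 and 9.59e-05).

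Rora (chromosome 9, 68653786 to 69388246), a nuclear receptor, measured 8.51, 9.12, 8.77 and 9.06 in DKO_EE at 12 weeks and 8.84 to 10 at endstage. In DKO it went from 9.45, 9.36, 9.21 and 8.86 to 7.89, 7.22 and 7.88, and in DKO_EP from 8.86, 9.56, 9.54 and 9.34 to 6.79, 7.39 and 8.26. The endstage DKO_EE animals lay above those of DKO and DKO_EP. The differences between the changes were 2.11 (adjusted p = 0.0021) and 2.4 (adjusted p = 0.000368). Cacna1d, a calcium channel of endocrine cells, differed by 5.11 against DKO_EP (adjusted p = 0.00382), with 7.52 to 10.36 at endstage in DKO_EE and 4.2, 4.41 and 3.61 in DKO_EP, though limma-voom did not call it (adjusted p = 0.302).

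Marcks (chromosome 10, 37133375 to 37138920), a membrane-bound substrate of protein kinase C, went the opposite way. It fell from 11.43, 11.28, 10.77 and 11.66 to between 9.53 and 10.51 in DKO_EE. At endstage it was 11.61, 11.48 and 11.37 in DKO and 11.46, 11.52 and 11.48 in DKO_EP, above all DKO_EE animals. The differences between the changes were -1.83 (adjusted p = 0.00144) and -1.76 (adjusted p = 0.00313). Pcdhb9, a clustered protocadherin whose relatives may share its reads, had differences of -4.01 (adjusted p = 0.00545) and -3.78 (adjusted p = 0.0226), and in DKO_EE itself a change of -0.2, not called. The second of these was lost without DKO_EP endstage animal 2 or 3 (adjusted p 0.0695 and 0.195), DKO_EP 12-week animal 4 (0.0607) or DKO_EE 12-week animal 3 or 4 (0.0603 and 0.095).

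Nedd4l, a ubiquitin ligase, was lower at endstage than at 12 weeks in all 3 genotypes. It measured 9.66, 10.25, 10.14 and 10.18 in DKO_EE at 12 weeks and 8.76 to 9.39 at endstage, against 7.58, 8.07 and 7.45 in DKO at endstage. The difference between the changes was 1.6 against DKO (adjusted p = 0.00729; 0.0549 without DKO endstage animal 3).

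Lhx2, a LIM homeobox factor, was low in DKO_EE at each stage, at 1.05 to 2.2 and 0 to 1.07. It averaged 5 in DKO and 4.73 in DKO_EP at endstage. Its differences were -5.96 (adjusted p = 0.000601) and -5.35 (adjusted p = 0.00313), and it was named after its values were seen.

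Markers of muscle moved with part of these results. The summed skeletal muscle level at 12 weeks was 334467, 13527, 21835 and 185653 in DKO and 314, 318061, 1151 and 339574 in DKO_EP, but 2052, 245, 477 and 809 in DKO_EE. Mybpc1, a myosin binding protein of slow muscle, measured 11.51, 7.22, 7.53 and 10.49 in the same DKO animals, and its difference between the changes was 11.97 (adjusted p = 0.0233). That call ended without DKO endstage animal 1, 2 or 3 (adjusted p 0.0594, 0.11 and 0.0561), DKO 12-week animal 1 (0.087) or DKO_EE 12-week animal 2 (0.0634). The part of muscle was not tested.

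All differences against DKO lost their call with the identifier letters as a covariate, where 0 genes were called by limma; 3 of 4 DKO animals at 12 weeks have the letter T, which no animal of DKO_EE has. For Fign the difference was then 3.51 (adjusted p = 0.423), for Rora 1.75 (0.569) and for Marcks -1.89 (0.206). Against DKO_EP, where all 12-week animals of both genotypes have DKOE, the same covariate gave 5.29 for Fign (adjusted p = 7.49e-06), 2.4 for Rora (0.000583) and -1.77 for Marcks (0.00449). With DKOE animals only, which leaves 1 DKO_EP animal at endstage, Fign and Rora were called, and Cacna1d (4.41, adjusted p = 0.916) and Marcks (-1.57, adjusted p = 0.692) were not. Marcks also lost its call with only the groups of the contrast (adjusted p = 0.0502).

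**Figure D5:**
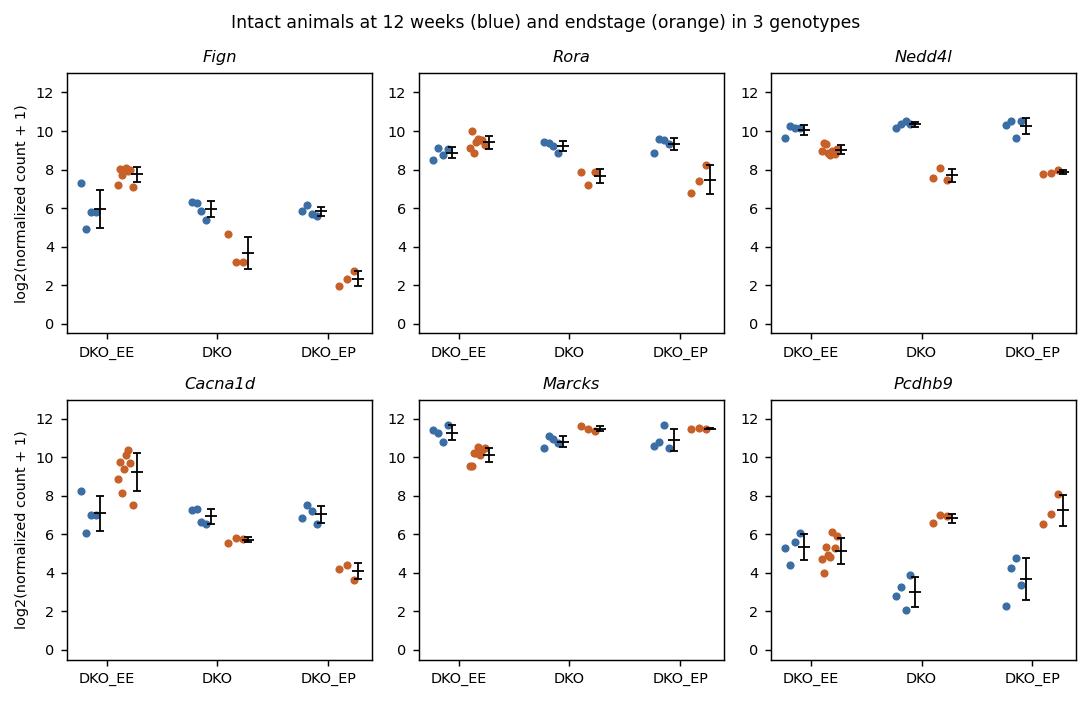
Log2(normalized count + 1) of 6 genes in intact animals of DKO_EE, DKO and DKO_EP at 12 weeks (blue) and endstage (orange), with mean and SD. At endstage Fign is 7.11 to 8.09 in DKO_EE, 3.18 to 4.65 in DKO and 1.97 to 2.73 in DKO_EP, whereas Marcks is lowest in DKO_EE.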

How the data were processed

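RNA of mouse prostate tumours was sequenced in 54 libraries of 48 animals. The deposited table gives 16772 genes as log2 of a normalized count plus 1, as the values show; the submitters' processing notes name FastQC, STAR, RSEM, limma and DESeq2 and the builds GRCm38 and mm10, without versions or roles, and the use of strand is not given in the sources used here. Whole reads were recovered within 0.05 for 100% of the values, which gave 3687048 to 9741808 reads per library; 2 table columns of no sample were not used.

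Pieces of 1 animal were averaged, and limma 3.58.1 (R 4.3.3, Python 3.11.15) was fitted to 48 animals in 11 groups with Benjamini-Hochberg adjustment over all genes. Replicates are animals, as the labels give them. Differences between genotypes were contrasts of the same fit, and age was fitted within the 8 endstage animals. The alternatives changed the groups in the fit, the filter on low values, the offset, normalization, weights, pieces, identifier letters, Lars2 libraries, the test scale and each animal. Simulated data of 16769 genes for endstage against 12 weeks held 200 changed genes. Recovered were 13 of 100 genes changed by a log2 of 1 and 79 of 100 changed by 2, with 3 false calls. In the real data 8483 genes were called, so these shares do not give the recovery in this comparison.

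Named genes were up to 12 of the largest called changes in each direction without overlap of animals, up to 5 members of each list with the smallest adjusted p and those of opposite direction, up to 8 genes in each direction per genotype difference, and a fixed set. Unnamed gene models and the lowest 25% of genes by mean were left out of the choice by size. Further genes were named after their values were seen: Scg2, Pcsk1, Calca, Grp, Foxm1, Rest, Onecut2, Dbh, Prph, Tubb3, Gap43, B2m, Krt18, Cd276, Folh1, Axin2, Pecam1, Svs2, Pate4 and Kank4. Some members of the lists are not reported here by name. Members and lists were chosen with earlier results of these data known. Positions are from GENCODE M21 (GRCm38) and promoters from RefSeq (GRCm38.p6).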

Additional observations from a re-analysis of the deposited data

Results flagged for a closer look

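In 7 of 110 groups of values, 1 animal lay far from the rest of its group; chance gives about 1 in 20, and 6 are given here. At 12 weeks Gsdmc2 was 9.86 in animal 1 (12.55 to 12.96 in the others), Hoxb13 8.78 in animal 1 (7.85 to 8), Mki67 11.9 in animal 4 (11.27 to 11.33) and Myh7b 3.77 in animal 4 (1.89 to 2.07). At endstage Cxcl5 was 7.22 in animal 1 (0 to 2.98) and Zeb1 9.25 in animal 4 (6.6 to 7.6).

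The change from 12 weeks to endstage differed between genotypes in a contrast of the limma fit for these genes. Against DKO the differences of the changes were 4.06 for Fign, 2.11 for Rora, 1.6 for Nedd4l, 1.24 for Trp53bp2, 7.84 for Lars2, 11.97 for Mybpc1, -4.01 for Pcdhb9, -1.83 for Marcks and -1.66 for Ghr. Leaving out 1 animal at a time ended the call of Ghr in 10 of 19 fits (highest adjusted p 0.15), of Trp53bp2 in 6 (0.147), of Lars2 in 5 (0.11), of Mybpc1 in 5 (0.11) and of Nedd4l in 1 (0.0549). Against DKO_EP they were 5.28 for Fign, 5.11 for Cacna1d, 2.4 for Rora, -3.78 for Pcdhb9, -1.76 for Marcks and -1.5 for Snn. Here the call of Snn ended in 12 of 19 such fits (highest adjusted p 0.195) and that of Pcdhb9 in 5 (0.195).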

How the results depend on the processing

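Of 282 named genes called between endstage and 12 weeks, 229 were called under every alternative run and 0 turned direction, and the 8483 calls ranged from 7401 to 8862 without 1 animal and from 6602 (animals with the letters DKOE only) to 9849 (array weights) over the other alternatives. Of 1750 list counts, 125 moved by over 1.5 times. The 21 calls against DKO became 172 with only the groups of the contrast, 39 with the intact groups, 614 with array weights, 5 with DKOE animals only, 0 with the letters as a covariate, 33 with Lars2 percent as a covariate, 34 in limma-voom and 9 without the lowest 25% of genes; without 1 animal they reached 51 (without DKO_EE endstage animal 3) and 42 (DKO 12-week animal 4). The 9 calls against DKO_EP became 49 with only the groups of the contrast, 69 with the intact groups, 1020 with array weights, 15 with the animal as a random effect and 2 with DKOE animals only; without 1 animal they ranged from 5 (DKO_EP endstage animal 2 or 3, DKO_EE 12-week animal 4) to 32 (DKO_EP 12-week animal 3), with 22 and 16 without DKO_EE endstage animal 3 or 4 and 19 without DKO_EP 12-week animal 1. Age gave 0 calls, and 1 without endstage animal 6; the cause was not tested for any of these. Genes that were not called and turned direction were Cdkn2a (0.03 with DKOE animals only), Ezh1 (0.02 with DKOE animals only, 0.08 with the letters as a covariate, 0.01 in limma-voom, and -0.12 to 0 without 1 animal, the latter without endstage animal 3), Mycn (-0.02 without 12-week animal 1), Rb1 (-0.06 with Lars2 percent as a covariate) and Ttn (0.01 without endstage animal 2, 0.37 without 12-week animal 1, and down to -0.8 without 12-week animal 2). The planned edgeR test was not run, since the values were deposited on a log2 scale, and DKO_EP could not be compared among libraries under 10% Lars2. No paired analysis was possible because the labels give the groups no shared replicate numbers. With 3687048 reads in the shallowest library, genes near 0 are the least certain.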
